A study of Mus musculus with 23 samples.

Results

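The genes of BMP, TGF-beta and Nodal signalling were followed across undifferentiated embryonic stem cells (ESCs), ESC-derived cells of 3 culture systems and native cells of the same surface phenotype. The genes were taken by symbol: the bone morphogenetic proteins (BMPs) and their receptors, the TGF-beta ligands and receptors, the activin receptors, the SMADs, the growth differentiation factors (GDFs), the inhibin and activin subunits, Id1 to Id4, Nodal, Lefty1, Lefty2, Nog, Chrd and Fst. This rule found 57 genes, read by 77 probes, of the 18096 genes and 25697 probes measured. Of the 57 genes, 39 stood above background (detection p under 0.01) on at least 1 array and 18 on none, Smad7, Smad9, Bmp2, Bmp6, Bmpr2, Acvr1b and Acvr2a among these 18. No probe was found for Smad4, the partner that BMP and TGF-beta SMADs share, which was therefore not measured here.

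Total RNA was hybridized to 23 Illumina mouse bead arrays. Mouse R1 ESCs (129X1/SvJ x 129S1 background), expanded on inactivated embryonic fibroblasts, were read before differentiation at day 0 (undifferentiated ESC, 3 arrays). Cells positive for ckit and Sca-1 were sorted at day 7 from embryoid bodies (EBs) grown in unstirred flasks (Static, 3 arrays), stirred flasks (Spinner, 3 arrays) or rotating vessels (Synthecon, 8 arrays). Lin-ckit+Sca-1+ (LKS) cells were sorted from the bone marrow (BM, 3 arrays) of mice aged 10 weeks by the labels and from fetal liver (FL, 3 arrays) at embryonic day 15. Differentiation was spontaneous, no growth factor of the pathway being named for the EB cultures. BM and FL cells came from mice of the strains behind the R1 line and were depleted of lineage-positive cells before sorting, a step that the EB cells did not have. All ESC-derived samples come from 1 cell line. The undifferentiated ESC arrays were all on slide 1, the FL arrays all on slide 2 and the BM arrays on slides 1 and 2. The Synthecon arrays were on slides 2 and 3, so no slide held both Synthecon and undifferentiated ESC arrays. Spinner and Synthecon together are called dynamic culture, and BM and FL together native cells. The labels and the methods call the arrays biological replicates without saying which cultures or animals they came from, so that p-values cover the spread among these samples, which may be technical.

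Ligands of the family bind pairs of type I and type II receptor kinases, and the type I receptor phosphorylates SMAD proteins that enter the nucleus. TGF-beta, activin, Nodal and GDF3 act through SMAD2 and SMAD3, and the BMPs through SMAD1, SMAD5 and SMAD9, whereas SMAD6 and SMAD7 inhibit the signal. Nodal holds early embryonic cells in a pluripotent or mesendodermal state, BMP4 induces mesoderm and its blood-forming derivatives, and TGF-beta 1 restrains the cycling of hematopoietic stem cells.

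The promoters of 4 genes are shown because these genes carried the main pattern: Tgfb2, Smad6 and Tgfbr2 were higher and Nodal lower in Static than in dynamic culture. The windows run from 250 bases before to 50 bases after the RefSeq start of the gene on GRCm38.p6, 5′ to 3′ along the gene, at chr1:186705940-186706239 (minus strand) for Tgfb2, chr9:64022010-64022309 (minus strand) for Smad6, chr9:116175314-116175613 (minus strand) for Tgfbr2 and chr10:61417722-61418021 (plus strand) for Nodal. Capitals mark 2 motifs bound by SMAD proteins, CAGAC and the palindrome GTCTAGAC, searched on both strands.
Tgfb2: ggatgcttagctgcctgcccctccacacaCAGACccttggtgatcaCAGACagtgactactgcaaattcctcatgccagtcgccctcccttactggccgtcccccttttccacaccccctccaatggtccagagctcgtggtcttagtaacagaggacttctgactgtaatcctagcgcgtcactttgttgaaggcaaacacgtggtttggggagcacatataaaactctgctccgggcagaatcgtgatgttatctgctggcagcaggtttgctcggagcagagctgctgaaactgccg
Smad6: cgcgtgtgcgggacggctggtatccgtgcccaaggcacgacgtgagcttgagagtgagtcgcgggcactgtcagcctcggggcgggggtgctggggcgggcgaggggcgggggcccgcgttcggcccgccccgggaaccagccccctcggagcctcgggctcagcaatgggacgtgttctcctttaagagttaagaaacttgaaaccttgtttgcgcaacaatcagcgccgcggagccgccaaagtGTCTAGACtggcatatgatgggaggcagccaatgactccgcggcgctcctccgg
Tgfbr2: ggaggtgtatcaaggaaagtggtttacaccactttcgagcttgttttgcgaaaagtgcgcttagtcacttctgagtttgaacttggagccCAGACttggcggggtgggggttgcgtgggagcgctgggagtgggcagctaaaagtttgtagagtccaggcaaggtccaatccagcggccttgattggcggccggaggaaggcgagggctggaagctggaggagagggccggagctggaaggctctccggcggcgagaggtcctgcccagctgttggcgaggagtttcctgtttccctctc
Nodal: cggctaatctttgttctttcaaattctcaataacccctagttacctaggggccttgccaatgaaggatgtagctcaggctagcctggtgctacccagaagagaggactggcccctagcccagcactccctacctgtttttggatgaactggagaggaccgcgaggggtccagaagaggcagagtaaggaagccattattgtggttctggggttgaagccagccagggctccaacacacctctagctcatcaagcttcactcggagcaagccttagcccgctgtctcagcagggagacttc
Tgfb2 held 2 copies of CAGAC, with first bases 221 and 204 bases before the start, and Tgfbr2 held 1, at 160 bases before it. In Smad6, the gene of the inhibitory SMAD, the palindrome began 4 bases before the start and ran across it, and Nodal held no match. CAGAC was found in 49.6% of 32851 promoters of this length and in 19 of the 38 member genes that have a window, so it is a common motif. The shares of promoters count windows, whereas a member gene counts with a match in any of its windows. The 2 are therefore not compared, for CAGAC or for the motifs below. The palindrome was found in 70 promoters (0.213%), and among the members in that of Smad6 alone. Another motif, the GC-rich element GGCGCC read by BMP SMADs, was found in 11.9% of promoters and in 12 of the 38 member genes, and in none of these 4. The motifs do not overlap one another in these windows, and a match says only that the letters are there.

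Between 9785 and 11204 probes stood above background per array, the floor of detection lay at log2 values of 6.67 to 7.02, and values ran from 4.895 to 15.09 with a median of 6.40. Several libraries stood apart. Among the Synthecon arrays, replicates 1, 3, 5 and 7 and replicates 2, 4, 6 and 8 formed 2 sets: on the same slide, arrays of 1 set differed by a median of 0.0794 to 0.0922 per probe, against 0.178 to 0.191 between the sets and 0.103 to 0.445 between replicates of the other groups. Each set was therefore averaged to 1 sample in the tests, and Synthecon means carry an SD over 2 set means (n = 2). Arrays of 1 set on different slides differed more, by 0.231 to 0.252. Static replicate 1 resembled the ESCs more than the other 2 Static arrays did: Pou5f1, the pluripotency factor Oct4, read 12.49 there and 8.78 and 7.24 in replicates 2 and 3. The mean log2 level of 6 pluripotency markers ran from 8.18 to 12.35 in Static, from 12.48 to 12.84 in dynamic culture and from 11.88 to 12.26 in undifferentiated ESCs, and none of the 6 was above background in BM or FL. The mean of 8 blood cell markers ran from 7.39 to 10.29 in Static and from 6.91 to 7.36 in dynamic culture, that of 7 fibroblast markers from 7.00 to 9.33 against 5.96 to 6.47, that of 6 endothelial markers from 7.17 to 9.34 against 6.89 to 7.42, and all 3 embryonic globins stood above background on every Static array (mean 10.22 to 14.79), on no Spinner array, and on Synthecon replicates 2, 4, 6 and 8 (7.35 to 7.61) but not 1, 3, 5 and 7, the same 2 sets. The mean of 6 endoderm markers ran from 8.17 to 8.82 in Static and from 6.74 to 7.90 in dynamic culture, that of 4 cardiac and smooth muscle markers from 9.04 to 11.04 against 7.46 to 9.16, and that of 4 macrophage markers from 6.29 to 8.25 against 6.11 to 6.65. Undifferentiated ESC replicate 2 held the highest fibroblast marker level of its group (8.07 against 6.80 for the lowest), and FL replicate 3 the highest macrophage level (11.79 against 8.97). The part of these cells in any difference below was not tested, and in bulk samples fewer cells of a type cannot be told apart from less RNA per cell. Ly6a, the Sca-1 gene of the sort, was above background on every array, and no probe was found for Kit.

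**Figure D1:**
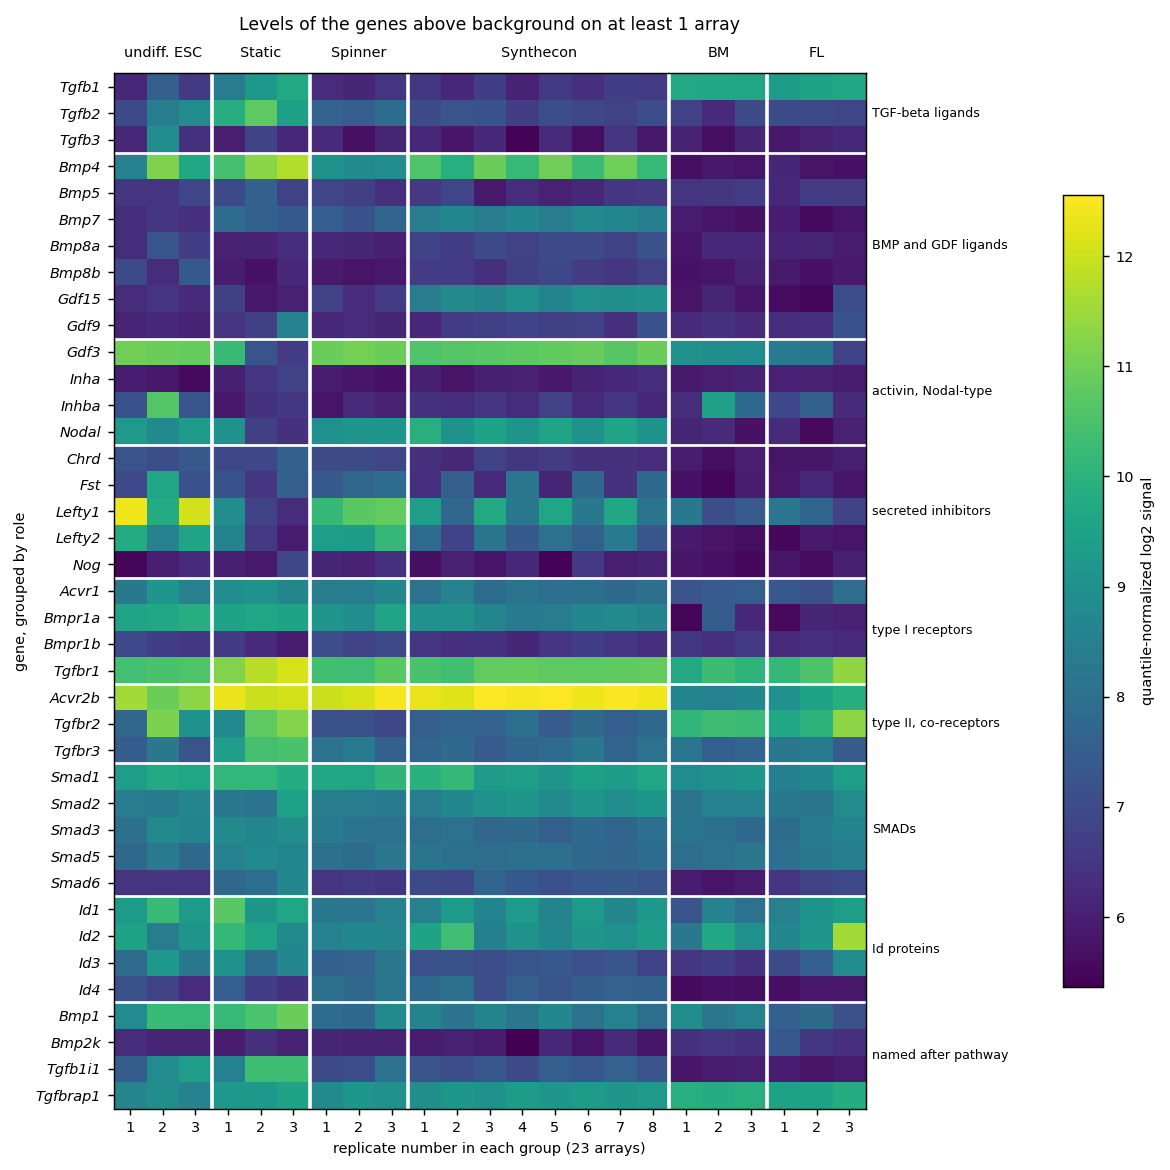
Quantile-normalized log2 signal of the 39 genes above background on at least 1 array (rows, grouped by role) on each of the 23 arrays (columns, by group and replicate number). Tgfb1, Tgfb2, Tgfbr2, Tgfbr3 and Bmp1 are bright in Static and dim in Spinner and Synthecon. Nodal and Gdf3 are bright in undifferentiated ESC, Static replicate 1, Spinner and Synthecon. Lefty1 and Lefty2 are bright in undifferentiated ESC and Spinner and dimmer in Synthecon, and Acvr2b is bright in every ESC-derived group.

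Genes of the family differed between Static and dynamic culture in both directions. The TGF-beta ligands Tgfb1 and Tgfb2, their receptors Tgfbr1, Tgfbr2 and Tgfbr3 and the inhibitory Smad6 were higher in Static, by 2.14-fold (Tgfbr1) to 7.35-fold (Tgfbr2), and Nodal, Gdf3 and the Nodal inhibitors Lefty1 and Lefty2 were lower, by 3.10-fold (Lefty2) to 7.08-fold (Gdf3) on the measured values. Of these 4, Gdf3 was above background on 2 of 3 Static arrays and the others on 1. Of the 57 genes, 15 were higher and 6 lower in Static than in dynamic culture at an adjusted p under 0.05 (limma, Benjamini-Hochberg over all probes), where 7.17% of all genes were higher and 8.47% lower. The members higher were 26.3%, above the share of all genes, and the members lower were 10.5%, near that share. The median difference over the 57 genes was 0.21 on the log2 scale and that over all genes -0.02. By role, 2 of 3 TGF-beta ligands, 2 of 5 type II and co-receptors, 3 of 7 SMADs, 1 of 7 type I receptors and 2 of 4 proteins named after the pathway were higher and none of these lower, and 2 of 5 secreted inhibitors were lower and none higher. Of 16 BMP and GDF ligands 3 were higher and 1 lower, of 6 activin and Nodal-type ligands 1 was higher and 2 lower, and of 4 Id genes 1 was higher and 1 lower. The calls of 2 of the 15 higher genes carry no fold: Inha, above background on 1 array, and Bmp15, above it on none. Without Static replicate 1 the count was 17 higher and 8 lower, and without Static replicate 2 or without replicate 3 it was 11 higher and 2 lower. Of the 21 genes called with all arrays, 20 were called without replicate 1, 13 without replicate 2 and 13 without replicate 3. Slide 1 holds Static replicates 1 and 2 with Spinner replicates 1 and 2, where only Smad6 passed the test. Slide 3 holds Static replicate 3 with Synthecon replicates 3 to 8, which entered as 2 set means. With 1 Static array there, only the size of a difference is read on slide 3.

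**Figure D2:**
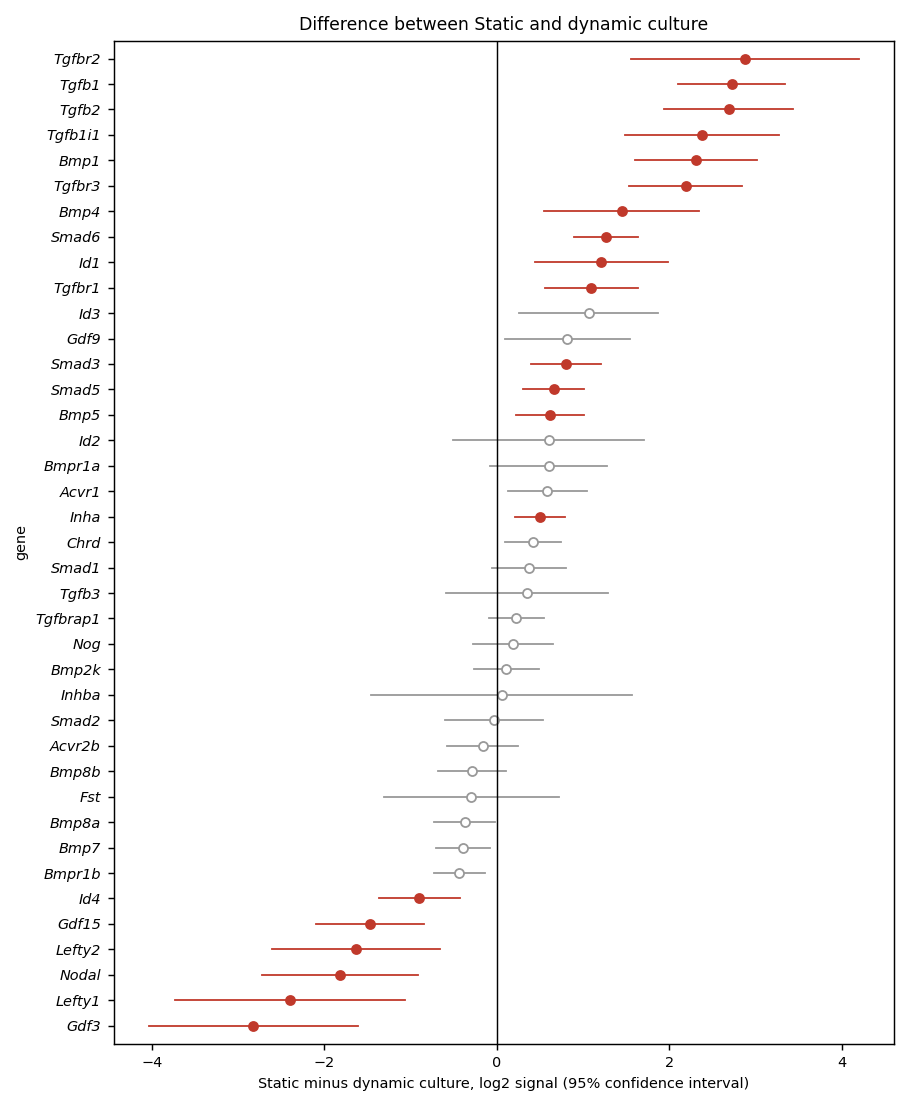
Difference of Static minus dynamic culture in log2 signal, with its 95% confidence interval, for the 39 genes above background on at least 1 array. The 20 filled points passed the test (adjusted p under 0.05), from Tgfbr2 at 2.88 to Gdf3 at -2.82, and open points did not.

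Static and dynamic culture were each compared with the undifferentiated ESCs, a shared control, and the values are given side by side. In Static, 11 genes were higher and 6 lower, where 7.24% of all genes were higher and 7.18% lower, and the median difference was 0.15 (all genes -0.01). In dynamic culture, 4 genes were higher and 3 lower, where 6.71% and 4.27% of all genes were, and the median was -0.08 (all genes -0.00). Leaving out Static replicate 3 brought the Static count to 6 higher and 4 lower. Over all 6 groups, 34 of the 57 genes differed by the F test, where 45.9% of all genes did.

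TGF-beta 1, the main immune and hematopoietic ligand, read 8.38, 9.20 and 9.74 in Static replicates 1 to 3. In Spinner Tgfb1 read 6.27, 6.13 and 6.46, below background, and in Synthecon it ran from 6.05 to 6.71 with a median of 6.57, above background on 1 of 8 arrays. No dynamic array reached the lowest Static array. Undifferentiated ESCs read 6.16, 7.54 and 6.59, above background on replicate 2 alone, BM 9.72, 9.67 and 9.59 and FL 9.32, 9.55 and 9.66, so native cells lay at the level of the brighter Static arrays. The Static mean was 2.73 ± 0.29 (SE) above that of dynamic culture on the log2 scale, at least 5.56-fold (adjusted p = 3.8e-05), 5.08-fold above undifferentiated ESCs (adjusted p = 0.00035) and -0.48 from native cells with a 95% interval from -1.08 to 0.12 (adjusted p = 0.24). In dynamic culture Tgfb1 lay at least 7.76-fold below native cells (adjusted p = 4.6e-08). Such a bound sets the brighter group against the dimmer one after raising each array of a group that lay below background on all its arrays to the lowest signal of any probe above background on that array, and folds are given on the quantile-normalized log2 scale.

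Tgfb2, a ligand of heart, neural and mesenchymal development, read 9.86, 10.78 and 9.44 in Static. It read 7.63, 7.53 and 7.90 in Spinner and 6.67 to 7.22 in Synthecon (median 7.05), again with no overlap between Static and dynamic arrays. Undifferentiated ESCs read 6.99, 8.42 and 8.83, and the 6 native arrays ran from 6.24 to 7.05, around the floor of detection. Static was 6.45-fold higher than dynamic culture (2.69 ± 0.35, adjusted p = 0.00019), 3.86-fold higher than undifferentiated ESCs (adjusted p = 0.0043) and 9.24-fold higher than native cells (adjusted p = 2.6e-06). Tgfb2 thus separated Static from native cells, whereas Tgfb1 separated dynamic culture from them. Tgfb3, the third ligand, was above background on 2 arrays, undifferentiated ESC replicate 2 (8.90) and Static replicate 2 (6.85), and passed no test.

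**Figure D3:**
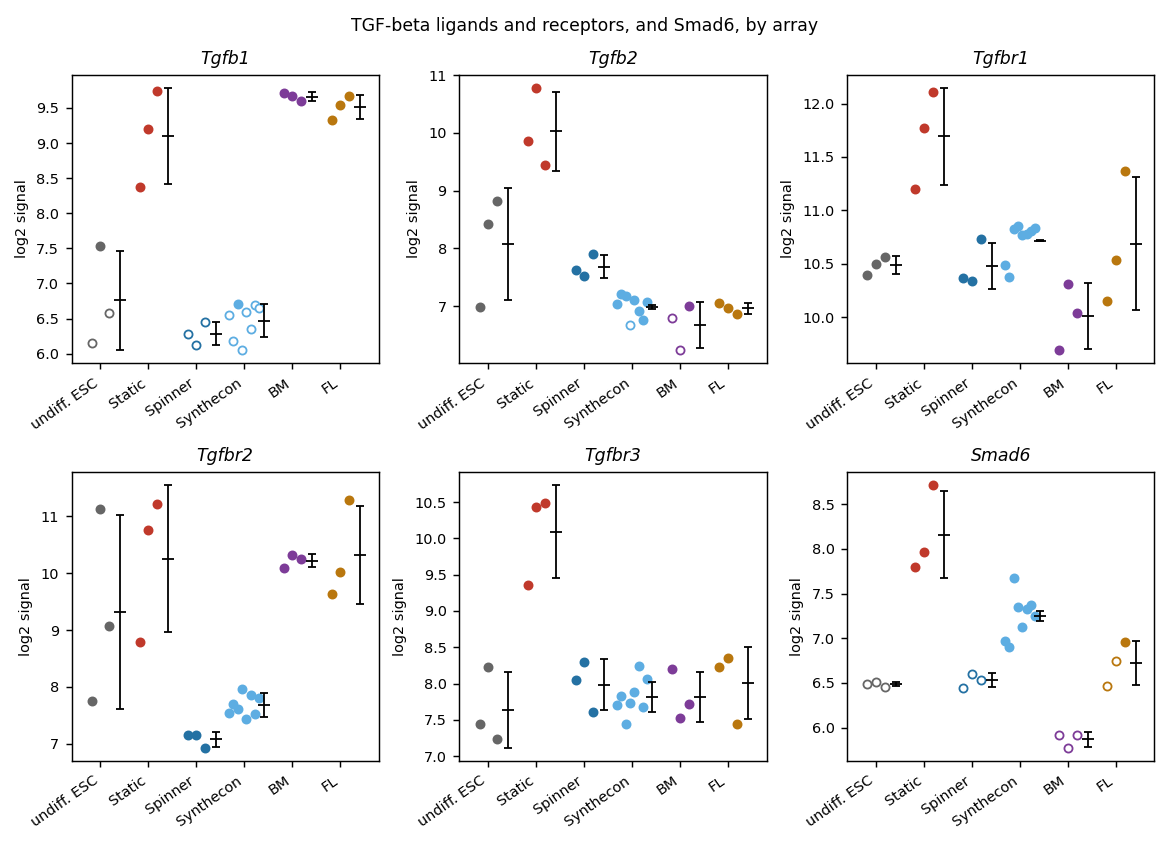
Log2 signal of Tgfb1, Tgfb2, Tgfbr1, Tgfbr2, Tgfbr3 and Smad6 on each array by group, with the mean and SD of each group (Synthecon: n = 2 set means) as a bar beside the points. Filled points lay above background and open points below it, and for Tgfb1, Tgfb2, Tgfbr1, Tgfbr2, Tgfbr3 and Smad6 every Static array lies above every Spinner and Synthecon array.

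The receptors moved with the ligands. Tgfbr2, the type II receptor that binds TGF-beta, read 8.79, 10.77 and 11.21 in Static against 7.15, 7.16 and 6.93 in Spinner and 7.44 to 7.96 in Synthecon (median 7.66). BM read 10.09, 10.32 and 10.26 and FL 9.64, 10.03 and 11.29, and undifferentiated ESCs spread from 7.75 to 11.13, with the highest value in replicate 2, the array with the most fibroblast marker signal. Static was 7.35-fold above dynamic culture (2.88 ± 0.62, adjusted p = 0.0061), and dynamic culture was 7.43-fold below native cells (adjusted p = 0.0003). Static differed from native cells by -0.02 (95% interval from -1.29 to 1.26). The comparison of dynamic culture with undifferentiated ESCs gave -1.94 (adjusted p = 0.061), and it passed the test without undifferentiated ESC replicate 1 (-2.72, adjusted p = 0.012) and, at an unchanged difference, without Static replicate 1 (adjusted p = 0.027), Static replicate 3 (adjusted p = 0.0499) or FL replicate 3 (adjusted p = 0.048).

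Tgfbr3, the co-receptor betaglycan that presents TGF-beta 2 to the signalling receptors, read 9.36, 10.44 and 10.48 in Static. Every other array lay lower, at 7.23 to 8.23 in undifferentiated ESCs, 7.61 to 8.30 in Spinner, 7.44 to 8.24 in Synthecon (median 7.78) and 7.44 to 8.35 in native cells. The Static mean was 4.57-fold above dynamic culture (adjusted p = 0.00034), 5.49-fold above undifferentiated ESCs (adjusted p = 0.00037) and 4.56-fold above native cells (adjusted p = 3.9e-05). The type I receptor Tgfbr1 was bright everywhere, at 11.20, 11.77 and 12.11 in Static and 10.34 to 10.85 on the dynamic arrays. It was 2.14-fold higher in Static than in dynamic culture (1.10 ± 0.25, adjusted p = 0.0087), and without Static replicate 3 the difference was 0.89 (adjusted p = 0.057).

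Within slide 1 the Static minus Spinner differences were 2.59 for Tgfb1, 2.74 for Tgfb2, 2.63 for Tgfbr2, 1.72 for Tgfbr3 and 1.14 for Tgfbr1, with adjusted p-values of 0.073 to 0.29. Within slide 3 the Static minus Synthecon differences were 3.23, 2.50, 3.51, 2.65 and 1.29 in the same order, from a single Static array. Both slides thus gave the direction of the whole comparison.

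Nodal and its partners ran the other way. Nodal read 9.22, 8.78 and 9.32 in undifferentiated ESCs, 8.97, 9.11 and 9.13 in Spinner and 9.04 to 9.89 in Synthecon (median 9.31). Static split, at 9.03 in replicate 1 and 6.74 and 6.40, below background, in replicates 2 and 3, and all 6 native arrays lay below background at 5.56 to 6.27. The Static mean, over 1 array above background and 2 below it, was 3.54-fold below dynamic culture (-1.82 ± 0.42, adjusted p = 0.0093) and 3.29-fold below undifferentiated ESCs (adjusted p = 0.025). Against dynamic culture the difference was -1.50 (adjusted p = 0.075) without Static replicate 2 and -1.33 (adjusted p = 0.067) without replicate 3, and against undifferentiated ESCs -1.39 (adjusted p = 0.11) and -1.22 (adjusted p = 0.14). It was -1.66 (adjusted p = 0.078) without undifferentiated ESC replicate 1 and -1.61 (adjusted p = 0.088) without replicate 3. Nodal in dynamic culture differed from undifferentiated ESCs by 0.11 (95% interval from -0.80 to 1.01) and lay at least 4.82-fold above native cells (adjusted p = 2.1e-06).

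Gdf3, a ligand of pluripotent cells that shares the Nodal receptors, read 10.24 in Static replicate 1 and 7.23 and 6.65 in replicates 2 and 3. Undifferentiated ESCs (at 10.87 or more), Spinner (10.93 to 11.06) and Synthecon (10.59 to 10.95) lay close together, all above the 3 Static arrays. BM read 9.01, 8.89 and 8.87 and FL 8.29, 8.27 and 6.81, so Gdf3 was measured in native cells as well. The Static mean lay 7.08-fold below dynamic culture (-2.82 ± 0.57, adjusted p = 0.0039) and 7.47-fold below undifferentiated ESCs (adjusted p = 0.0071), and both calls were kept without any single sample. Dynamic culture was 5.67-fold above native cells (adjusted p = 0.00048).

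The secreted inhibitors Lefty1 and Lefty2, which Nodal signalling induces and which block it, showed the same split of the Static arrays. Lefty1 read 12.36, 9.78 and 12.05 in undifferentiated ESCs, 8.89, 6.76 and 6.28 in Static, 10.16, 10.72 and 10.81 in Spinner and 7.75 to 9.72 in Synthecon. Synthecon replicates 1, 3, 5 and 7 read 9.39 to 9.72 and replicates 2, 4, 6 and 8 read 7.75 to 8.28, so the 2 sets did not overlap. In Static Lefty1 was above background on replicate 1 alone, so the folds take in values below background. It was 16.99-fold lower in Static than in undifferentiated ESCs (-4.09 ± 0.70, adjusted p = 0.0015) and 5.28-fold lower than in dynamic culture (-2.40 ± 0.63, adjusted p = 0.018). The second of these lost its call without Static replicate 2 (-2.12, adjusted p = 0.10), Static replicate 3 (-1.89, adjusted p = 0.11) or the first Synthecon set (-2.03, adjusted p = 0.084). Lefty1 was also detected on 5 of 6 native arrays, where it ran from 6.80 to 8.24 and dynamic culture lay 4.41-fold higher (adjusted p = 0.0037).

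Lefty2 read 9.79, 8.57 and 9.57 in undifferentiated ESCs and 8.60, 6.55 and 5.91 in Static. It read 9.36, 9.35 and 10.15 in Spinner and 6.82 to 8.30 in Synthecon, with every Synthecon array below every Spinner array. Lefty2 was above background on Static replicate 1 alone, and its folds too take in values below background. Static was 4.89-fold below undifferentiated ESCs (adjusted p = 0.0078) and 3.10-fold below dynamic culture (-1.63 ± 0.46, adjusted p = 0.025). Against dynamic culture the difference was -1.40 (adjusted p = 0.14) without Static replicate 2, -1.08 (adjusted p = 0.16) without Static replicate 3, -1.50 (adjusted p = 0.052) without Spinner replicate 3 and -1.43 (adjusted p = 0.10) without the first Synthecon set. The Synthecon minus Spinner difference was -1.93 ± 0.57 (adjusted p = 0.084), and -2.79 (adjusted p = 0.018) within slide 2. The whole comparison passed the test, at an unchanged difference, without Static replicate 1 (adjusted p = 0.0059) or replicate 3 (adjusted p = 0.032), arrays that enter it only through the shared variance. In native cells Lefty2 was below background on all 6 arrays, dynamic culture lying at least 3.28-fold higher (adjusted p = 1.3e-05).

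Within slide 1 the Static minus Spinner differences were -1.16 for Nodal, -2.27 for Gdf3, -2.62 for Lefty1 and -1.78 for Lefty2, with adjusted p-values of 0.26 to 0.42. Within slide 3 the Static minus Synthecon differences were -2.91, -4.14, -2.67 and -1.89 in that order, from a single Static array. Within Static, replicate 1 had the highest Nodal, Gdf3, Lefty1 and Lefty2 and also the highest pluripotency marker mean (12.35). In Synthecon the marker mean ran from 12.48 to 12.84, above undifferentiated ESCs (11.88 to 12.26). Every Synthecon array lay below every undifferentiated ESC array in Lefty1 and Lefty2, and the arrays overlapped in Nodal and Gdf3. These 2 groups shared no slide, so slide cannot be told apart from culture between them. The part of the cells that carry these markers in the difference was not tested.

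**Figure D4:**
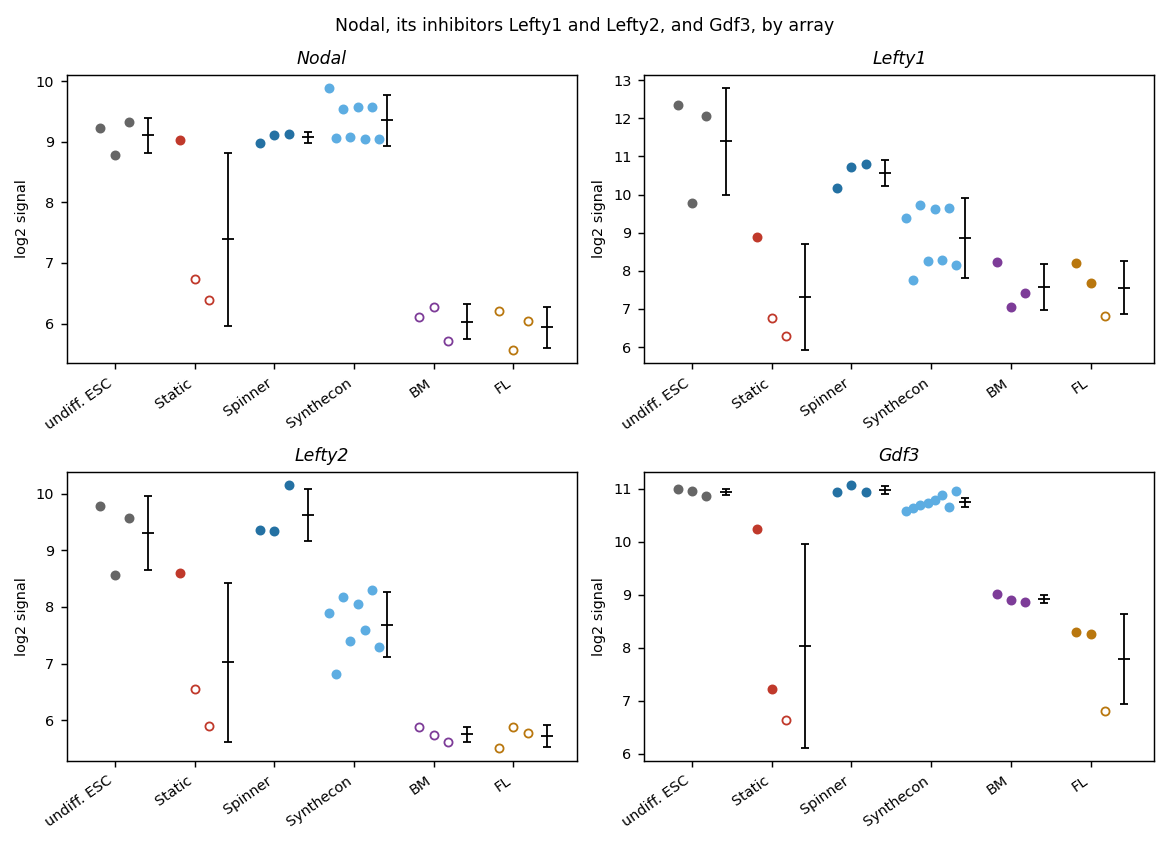
Log2 signal of Nodal, Lefty1, Lefty2 and Gdf3 on each array by group, with the mean and SD of each group (Synthecon: n = 2 set means) as a bar beside the points. Filled points lay above background and open points below it. Static replicate 1, the leftmost point of its group, lies apart from replicates 2 and 3 in each panel, and for Gdf3 replicate 2 is filled as well.

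The other inhibitors and the activin subunits were dimmer. Fst, follistatin, which binds activin, read 6.97, 9.60 and 7.19 in undifferentiated ESCs, 7.19, 6.49 and 7.54 in Static and 7.41, 7.74 and 7.87 in Spinner. The Synthecon sets parted here as well, at 6.12 to 6.43, below background, in replicates 1, 3, 5 and 7 and at 7.55 to 8.20 in replicates 2, 4, 6 and 8. Fst was at least 1.34-fold higher in dynamic culture than in native cells (adjusted p = 0.0053), where all 6 arrays lay below background, and the difference was 1.16 (adjusted p = 0.053) without the second Synthecon set. Inhba, the activin A subunit, was above background on all 3 undifferentiated ESC arrays (7.19, 10.65 and 7.23), on 2 of 3 BM arrays (9.49 and 7.81), on 1 FL array (7.61) and on 1 Synthecon array, and it passed no test. In undifferentiated ESC replicate 2 Inhba, Fst, Tgfb3, Tgfbr2 and Bmp4 were each the highest of the group, as the fibroblast marker mean was. Chrd, chordin, a BMP antagonist, read 7.09 to 7.36 in undifferentiated ESCs, 6.90 to 7.57 in Static, 6.88 to 7.00 in Spinner and 6.19 to 6.84 in Synthecon, and lay at least 1.14-fold above native cells in Static (adjusted p = 6.0e-06). Nog, noggin, was above background on 1 array, Static replicate 3 (6.90).

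Among the BMP ligands, Bmp4 and Bmp7 were found in ESC-derived cells and not in native ones. Bmp4 read 8.55, 11.16 and 9.65 in undifferentiated ESCs, 10.44, 11.27 and 11.73 in Static, 9.06, 8.77 and 8.88 in Spinner and 9.86 to 10.98 in Synthecon (median 10.41), and all 6 native arrays lay below background at 5.63 to 6.15. It was at least 18.5-fold above native cells in Static (5.34 ± 0.41, adjusted p = 7.3e-08) and at least 6.76-fold above them in dynamic culture (3.89 ± 0.35, adjusted p = 2.8e-07). Static and Synthecon arrays overlapped, Spinner lay below both, and the 2.73-fold difference between Static and dynamic culture (1.45 ± 0.42, adjusted p = 0.031) was lost without Static replicate 2 (1.39, adjusted p = 0.12), Static replicate 3 (1.16, adjusted p = 0.15), Spinner replicate 2 (1.42, adjusted p = 0.059), Spinner replicate 3 (1.44, adjusted p = 0.052) or the second Synthecon set (1.26, adjusted p = 0.12). Against undifferentiated ESCs the Static difference was 1.36 (adjusted p = 0.068), 2.05 (adjusted p = 0.0023) without undifferentiated ESC replicate 2 and 1.72 (adjusted p = 0.022) without Static replicate 1.

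Bmp7, a BMP of kidney, bone and early embryonic development, was below background in undifferentiated ESCs (6.29, 6.49 and 6.33) and in all native arrays (5.57 to 5.91). It read 7.89, 7.59 and 7.39 in Static, 7.51, 7.19 and 7.72 in Spinner and 8.38 to 8.74 in Synthecon. Every ESC-derived array at day 7 lay above every undifferentiated one, by at least 1.76-fold in Static (adjusted p = 0.00022) and at least 2.30-fold in dynamic culture (adjusted p = 1.6e-05). Synthecon was 2.12-fold above Spinner (1.08 ± 0.18, adjusted p = 0.005), with 0.99 (adjusted p = 0.086) without the second Synthecon set and 0.80 (adjusted p = 0.17) within slide 2.

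The 2 dynamic systems differed in few of these genes. Of the 57, 3 were higher in Synthecon than in Spinner and none lower, where 2.17% of all genes were higher and 1.08% lower, and the median difference was -0.02 (all genes 0.01). Gdf15, a stress-induced and divergent member of the family, read 8.42 to 9.03 in Synthecon (median 8.84) and was below background in Spinner (6.75, 6.27 and 6.64), Static (6.74, 5.84 and 6.03), undifferentiated ESCs (6.25 to 6.48) and BM (5.75 to 6.11). The difference between Synthecon and Spinner was at least 4.03-fold (2.25 ± 0.37, adjusted p = 0.004), 2.09 (adjusted p = 0.069) without the second Synthecon set and 1.94 (adjusted p = 0.21) within slide 2. Bmp7 was the second, and Bmp8a the third, at 6.66 to 7.15 in Synthecon and 5.97 to 6.15 in Spinner (at least 1.09-fold, adjusted p = 0.043). The call of Bmp8a was lost in 10 of 17 tests that left out 1 sample, with differences of 0.77 to 0.86. The dynamic mean of Gdf15 thus joins 1 culture in which it was detected with 1 in which it was not, which holds also for its 1.83-fold bound between Static and dynamic culture (-1.47 ± 0.30, adjusted p = 0.0038).

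**Figure D5:**
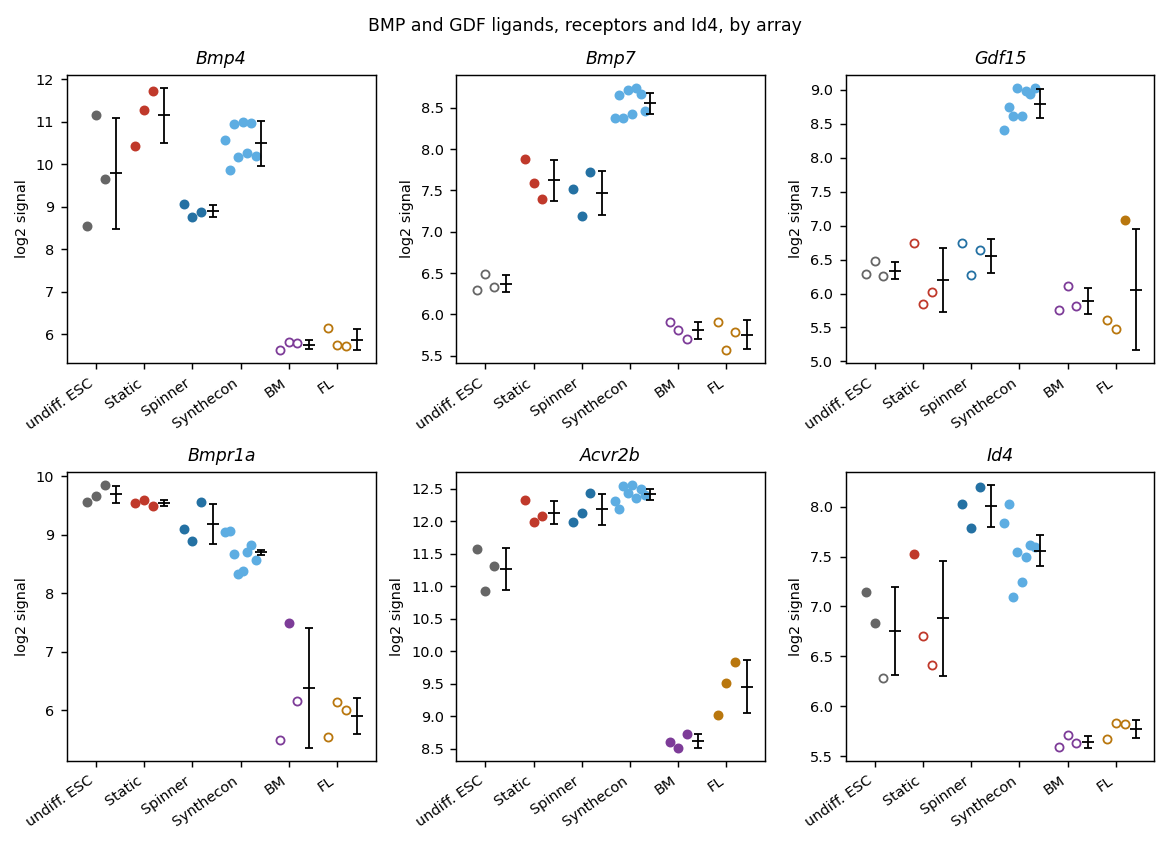
Log2 signal of Bmp4, Bmp7, Gdf15, Bmpr1a, Acvr2b and Id4 on each array by group, with the mean and SD of each group (Synthecon: n = 2 set means) as a bar beside the points. Filled points lay above background and open points below it, Bmp4 and Bmp7 are open on all 6 native arrays, and Gdf15 is filled on all 8 Synthecon arrays and on FL replicate 3.

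The remaining BMP and GDF ligands lay near the floor of detection. Bmp8b was above background in 2 of 3 undifferentiated ESC arrays (6.99 and 7.40) and 2 of 8 Synthecon arrays, and was at least 1.06-fold lower in Static (adjusted p = 0.0075) and at least 1.13-fold lower in dynamic culture (adjusted p = 0.035) than in undifferentiated ESCs, the second call being lost in 7 of 17 tests that left out 1 sample, with differences from -0.96 to -0.40. Gdf9, best known as an oocyte ligand, read 8.56 in Static replicate 3 and at most 7.18 on any other array. Bmp5 was above background on all 3 Static arrays (6.99, 7.59 and 6.77), and on 2 of 11 dynamic arrays, with a difference of 0.62 ± 0.19 (adjusted p = 0.038). That call was lost in 6 of 17 tests that left out 1 sample, with 0.38 (adjusted p = 0.25) without Static replicate 2. Inha was above background on Static replicate 3 alone (6.77), and its called differences carry no fold.

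Acvr2b, Bmpr1a and Acvr1 were higher in both Static and dynamic culture than in native cells. Of the 7 type I receptors, 4 were higher in Static than in native cells, where 14.5% of all genes were, and 3 in dynamic culture, where 21.0% were. Of the 5 type II and co-receptors, 3 were higher in Static, and 1 was higher and 1 (Tgfbr2) lower in dynamic culture. The calls of Acvrl1 and Bmpr2 in Static and of Bmpr1b in dynamic culture carry no fold, and Acvrl1, Bmpr2, Acvr1b, Acvr1c and Acvr2a were above background on no array. Acvr2b, a type II receptor of activin, Nodal and several BMPs, was among the brightest members, at 11.99 to 12.34 in Static, 11.98 to 12.45 in Spinner and 12.20 to 12.55 in Synthecon, against 10.93 to 11.57 in undifferentiated ESCs. BM read 8.61, 8.51 and 8.72 and FL 9.02, 9.51 and 9.84, so no native array reached any ESC-derived one. Acvr2b lay 8.59-fold above native cells in Static (adjusted p = 5.8e-09) and 9.62-fold in dynamic culture (adjusted p = 4.7e-10), and 1.82-fold and 2.04-fold above undifferentiated ESCs (adjusted p = 0.015 and 0.0029). The Static difference from undifferentiated ESCs was 0.70 (adjusted p = 0.058) without undifferentiated ESC replicate 2.

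Bmpr1a, the main type I receptor of BMP2 and BMP4, read 9.57 to 9.85 in undifferentiated ESCs, 9.50 to 9.60 in Static, 8.90 to 9.57 in Spinner and 8.33 to 9.06 in Synthecon. It was above background on 1 of 6 native arrays, BM replicate 2 (7.50), and below it on the others (5.49 to 6.16). The difference from native cells was at least 7.40-fold in Static (adjusted p = 5.0e-07) and at least 4.88-fold in dynamic culture (adjusted p = 4.7e-07). Acvr1, a type I receptor used by several BMPs, was measured on every array, 2.69-fold higher in Static (adjusted p = 7.6e-05) and 1.79-fold higher in dynamic culture (adjusted p = 0.0013) than in native cells. Bmpr1b stayed near the floor of detection, with 6.96 as its highest undifferentiated ESC value and 7.06 as its highest Spinner value.

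Of the SMADs, the inhibitory Smad6 changed most. Smad6, itself a BMP-induced brake on BMP receptors, read 7.79, 7.96 and 8.71 in Static and 6.90 to 7.68 in Synthecon (median 7.29), and lay below background in Spinner (6.44, 6.60 and 6.54), undifferentiated ESCs (6.46 to 6.51) and BM (5.77 to 5.92). Static was at least 2.20-fold above dynamic culture (1.27 ± 0.17, adjusted p = 0.00026), at least 2.54-fold above undifferentiated ESCs (adjusted p = 7.1e-05) and at least 2.50-fold above native cells (adjusted p = 4.5e-07). It was the 1 gene to pass within slide 1 in the comparison of Static with dynamic culture (1.35, adjusted p = 0.019). Within slide 3, with 1 Static array, the difference was 1.36. Between Synthecon and Spinner the difference was 0.72 (adjusted p = 0.089), and the test was passed without Static replicate 1 (adjusted p = 0.043) or Static replicate 3 (adjusted p = 0.0094).

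Smad1, Smad2, Smad3 and Smad5 were above background on all 23 arrays, and no called difference among them exceeded 2.14-fold. Smad1 read 9.82 to 10.12 in Static and 9.09 to 10.16 in dynamic culture, and lay 2.14-fold above native cells in Static (adjusted p = 0.00047) and 1.65-fold in dynamic culture (adjusted p = 0.0025). Smad3, the DNA-binding TGF-beta SMAD, read 8.68 to 8.92 in Static against 7.54 to 8.35 in dynamic culture and was 1.74-fold higher (0.80 ± 0.19, adjusted p = 0.011). Smad5 was 1.58-fold higher in Static than in dynamic culture (adjusted p = 0.015) and 1.61-fold higher than in undifferentiated ESCs (adjusted p = 0.023), and the first was 0.60 (adjusted p = 0.078) without Static replicate 2. The second was lost without undifferentiated ESC replicate 1 (0.60, adjusted p = 0.096) or 3 (0.59, adjusted p = 0.11) and without Static replicate 2 (0.62, adjusted p = 0.076) or 3 (0.68, adjusted p = 0.064). Smad2 ran from 8.10 to 9.49 over all arrays and passed no test, its Static minus dynamic difference being -0.03 (95% interval from -0.60 to 0.53). Smad9 was called higher in Static than in undifferentiated ESCs, but lay below background on every array, as Smad7 did.

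The Id genes, direct BMP targets whose proteins hold back differentiation factors, did not move as 1 group. Id1 read 10.71, 9.17 and 9.63 in Static against 8.18 to 8.57 in Spinner and 8.54 to 9.24 in Synthecon, and was 2.32-fold higher in Static than in dynamic culture (1.21 ± 0.36, adjusted p = 0.035). That call was lost without Static replicate 1 (0.78, adjusted p = 0.15), Static replicate 3 (1.31, adjusted p = 0.069), Spinner replicate 1 (1.197, adjusted p = 0.065), Spinner replicate 2 (1.17, adjusted p = 0.068) or the first Synthecon set (1.06, adjusted p = 0.13). Id4 went the other way, at 7.52, 6.70 and 6.41 in Static (above background on replicate 1 alone), 7.79 to 8.20 in Spinner and 7.09 to 8.02 in Synthecon, 1.87-fold lower in Static (-0.90 ± 0.22, adjusted p = 0.013), with -0.81 (adjusted p = 0.076) without Static replicate 2 and -0.67 (adjusted p = 0.084) without Static replicate 3. It was also 2.04-fold higher in dynamic culture than in undifferentiated ESCs (adjusted p = 0.0073), and 0.79 (adjusted p = 0.063) without undifferentiated ESC replicate 3. All 6 native arrays were below background for Id4 (5.59 to 5.83), and dynamic culture lay at least 1.79-fold above them (adjusted p = 2.3e-07). Id3 and Id2 passed no test of Static against dynamic culture (differences of 1.07, adjusted p = 0.075, and 0.60, adjusted p = 0.55), and Id2 was highest in FL replicate 3 (11.55), the array with the highest macrophage marker mean.

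Of the proteins that carry the pathway's name, Bmp1 and Tgfb1i1 followed the TGF-beta ligands. Bmp1, a protease that cleaves procollagen and the BMP antagonist chordin, is no BMP. It read 10.19, 10.53 and 10.95 in Static against 7.77 to 8.80 on the dynamic arrays, 4.95-fold higher (2.31 ± 0.33, adjusted p = 0.0004), and was 5.67-fold above native cells (adjusted p = 2.1e-05). Tgfb1i1, the focal adhesion adaptor Hic-5 of mesenchymal and smooth muscle cells, read 8.53, 10.31 and 10.31 in Static and 7.03 to 8.06 in dynamic culture, 5.20-fold higher in Static (adjusted p = 0.0017), and lay below background on all 6 native arrays. Tgfbrap1, a vesicle transport protein, was lower than in native cells by 1.36-fold in Static (adjusted p = 0.034) and 1.59-fold in dynamic culture (adjusted p = 0.00046), and the first was lost in 4 of 17 tests that left out 1 sample, with differences from -0.54 to -0.39.

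Against native cells more members were higher in culture than lower, in 2 comparisons that share the native arrays. In Static, 25 were higher and 2 lower, where 14.5% of all genes were higher and 13.8% lower, and the median difference was 0.33 (all genes -0.03). In dynamic culture, 18 were higher and 4 lower, where 21.0% and 18.1% of all genes were, and the median was 0.17 (all genes -0.01). The 4 lower genes were Tgfb1, Tgfbr2, Tgfbrap1 and Bmp2k, and the 2 lower in Static were Tgfbrap1 and Bmp2k. Of these calls, 6 in Static and 4 in dynamic culture carry no fold. In each, the brighter side lay below background or did not exceed the dimmer side once that was raised to the floor. Between BM and FL, 1 gene was lower in BM and none higher, where 0.448% and 1.00% of all genes were, with a median of -0.06 (all genes -0.01). That gene was Smad6, below background in BM and above it on 1 of 3 FL arrays (6.47, 6.75 and 6.95), with a difference of -0.85 (adjusted p = 0.039). It had no fold, and its call was lost in 12 of 17 tests that left out 1 sample and with the neqc normalization.

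The further genes of the pathway were 66 listed names, of which 60 were measured. Beside each count the share of all genes called in that direction is given. In Static, 14 were higher (7.17% of all genes) and 7 lower (8.47%) than in dynamic culture, and 12 were higher (7.24%) and 8 lower (7.18%) than in undifferentiated ESCs. In dynamic culture 2 were higher (6.71%) and 5 lower (4.27%) than in undifferentiated ESCs. Against native cells, 25 were higher (14.5%) and 3 lower (13.8%) in Static and 26 were higher (21.0%) and 7 lower (18.1%) in dynamic culture. Between BM and FL 1 was lower (0.448% of all genes), Cdkn1c, and none higher (1.00%). None passed the test between Synthecon and Spinner, where 2.17% of all genes were higher and 1.08% lower. The Cdkn1c call was lost in most tests that left out 1 sample. The difference was -2.34 (adjusted p = 0.055) without FL replicate 3 and -2.05 (adjusted p = 0.18) without FL replicate 2. Among 26 extracellular regulators and co-receptors, 5 were higher and 3 lower in Static than in dynamic culture, among 18 SMAD partners and regulators 1 and 3, and among 16 target genes 8 and 1.

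Among the further genes with the widest ranges of group means, Tdgf1, the Nodal co-receptor Cripto, read 10.29, 7.38 and 6.13 in Static and 10.76 to 11.52 in undifferentiated ESCs, 9.83-fold lower (-3.30 ± 0.66, adjusted p = 0.0045). Tdgf1 was split between the Static arrays as Nodal was, and was 3.74-fold lower in Static than in dynamic culture (-1.90 ± 0.60, adjusted p = 0.044). The second call was lost in 14 of 17 tests that left out 1 sample, with -1.63 (adjusted p = 0.20) without Static replicate 2 and -0.999 (adjusted p = 0.27) without replicate 3. Gpc3, a cell-surface glypican of embryonic tissue, read 12.28, 12.99 and 13.18 in Static, 10.57 to 10.98 in Spinner and 9.63 to 9.98 in Synthecon, 5.82-fold higher in Static than in dynamic culture (2.54 ± 0.24, adjusted p = 1.1e-05). Cdkn1c, the cell cycle inhibitor p57, which TGF-beta induces in blood progenitors, was 5.41-fold higher in Static (adjusted p = 0.0025). Tal1, the blood and endothelial factor that BMP4 acts upstream of, read 6.37, 9.10 and 8.83 in Static, 5.47 to 6.12 in dynamic culture and 8.26 to 11.58 in native cells. It was at least 2.55-fold higher in Static than in dynamic culture (adjusted p = 0.019) and 4.79-fold lower than in native cells (adjusted p = 0.010). The first was 1.87 (adjusted p = 0.13) without Static replicate 2, 2.01 (adjusted p = 0.10) without Static replicate 3 and 2.33 (adjusted p = 0.060) without the first Synthecon set, and the second -1.40 (adjusted p = 0.082) without Static replicate 1. Ctgf, a matrix protein induced by TGF-beta, differed by -0.20 between Static and dynamic culture (95% interval from -1.23 to 0.83) and lay at least 27.3-fold (Static, adjusted p = 4.5e-07) and at least 31.4-fold (dynamic, adjusted p = 3.7e-08) above native cells.

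Several genes had more than 1 probe (12 of 57), and the brightest was read. A second Smad1 probe, above background on all 23 arrays, also passed the test against native cells in Static (0.82, adjusted p = 0.0078) and dynamic culture (0.51, adjusted p = 0.036). A second Tgfbr1 probe, above background on 15 arrays, also passed the test of Static against dynamic culture (0.99, adjusted p = 0.016). A second Smad5 probe, above background on 22 arrays, did not, at 0.27 (adjusted p = 0.43) for Static against dynamic culture and -0.18 (adjusted p = 0.67) against undifferentiated ESCs, so the Smad5 calls rest on 1 probe. The other probes of Smad1, Tgfbr1 and Bmpr1b were above background on at most 2 arrays. The second probe of Tgfbr2 was above background on 1 array, and that of Tgfbr3 on 2, both Static. The sizes given for Tgfbr2 and Tgfbr3 therefore also rest on 1 probe each.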

How the data were processed

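Illumina MouseRef-8 bead arrays were read for 23 samples in 6 groups. The authors read the arrays in BeadStudio, subtracted background, quantile-normalized the signals and deposited them as log2 values with a detection p-value per probe. Non-normalized intensity values were deposited as well and entered the neqc alternative alone. Deposited columns of the authors' own tests over groups and pairs of groups (p-values) were not used.

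Groups were taken from the labels. The log2 values of all 25697 probes were fitted with limma 3.58.1 (R 4.3.3, with version 1.17.8 of the data.table package) with eBayes and a variance trend, on 17 samples: 15 arrays and the means of the 2 Synthecon sets. The main test names no block. There were 7 contrasts, each adjusted by Benjamini-Hochberg over all probes and called under 0.05, with no filter. A gene was read by its brightest probe, and a probe was above background at a detection p-value under 0.01. The fit was tested on simulated data. Alternatives were all 23 arrays, slide or replicate number as a block over these, neqc, no trend, a filter (above background on 3 arrays), all probes of a gene, each slide alone and each sample left out. A last one was a form of the methods' test (analysis of variance and t-test with false discovery rate) on the 17 samples, whose p-values are not printed. The number of arrays limits the precision.

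Named genes were, per role, up to 6 with the widest range of group means among those above background on at least 2 arrays, and always Nodal, Lefty1, Lefty2, Nog, Chrd, Fst, Id1 to Id4 and the SMADs. Others near detection were named after their values were seen, and 1 further gene that the rule names is not reported here. The members, roles and lists were chosen with earlier results of these data known. Symbols of 56 of the 57 genes were matched to RefSeq by accession, and promoter windows came from RefSeq GRCm38.p6. Tables were made with Python 3.11.15, pandas 2.3.3 and numpy 2.4.6.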

Additional observations from a re-analysis of the deposited data

How the results depend on the processing

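No named difference changed its direction and stayed called under any alternative run. With all 23 arrays as samples, the members called rose from 7 to 14 in dynamic culture against undifferentiated ESCs, from 3 to 10 in Synthecon against Spinner and from 1 to 2 in BM against FL, since each Synthecon array then counted as a sample. With slide as a block, over the 23 arrays, the count was 13 for dynamic culture against undifferentiated ESCs and 2 for BM against FL. A form of the methods' test was run on the same 17 samples, with joined groups pooled and adjustment over all probes. It called 0 members for Static against undifferentiated ESCs (17 by limma) and 1 for dynamic culture against them. It called 1 for Static against dynamic culture (21 by limma), 0 for Synthecon against Spinner and 0 for BM against FL. The cause was not tested. The study compared single groups in pairs, among genes that its analysis of variance had chosen, so these counts are not those of its own test. With neqc BM against FL had 0. Within slide 1, 3 members were called for Static against undifferentiated ESCs and 1 for Static against Spinner, and within slide 2, 1 for Synthecon against Spinner (Lefty2), each with fewer samples. Leaving out 1 sample gave 10 to 21 members for Static against undifferentiated ESCs, 3 to 11 for dynamic culture against them, 13 to 25 for Static against dynamic culture, 0 to 5 for Synthecon against Spinner, 22 to 28 for Static and 20 to 23 for dynamic culture against native cells, 0 to 2 for BM against FL and 31 to 35 for the test over all groups. Same-numbered samples of different groups correlated by -0.431 to 0.376, with 11 of 30 pairs over 0.1, so the numbers were not taken to pair the samples. With the replicate number as a block, over the 23 arrays, the counts were 22, 10, 25, 4, 30, 23, 1 and 35 in that order. Genes near the floor of detection have compressed differences, and with 3 arrays or 2 set means a group, small differences could not be shown.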
